A study of Rattus norvegicus with 12 samples.

Results

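Axin2 and 9 other core genes of the Wnt/beta-catenin pathway (Axin1, Apc, Ctnnb1, Lef1, Tcf7, Tcf7l1, Tcf7l2, Lrp5 and Lrp6) were followed in PC12 cells, a line derived from a rat adrenal pheochromocytoma, after addition of the neuropeptide PACAP38 (1e-07 M). All non-control probes annotated with 1 of these 10 gene symbols were taken, which gave 19 of the 41012 probes on the array and 10 of its 33212 gene names. At 6 time points (5, 10, 15 and 30 min, then 60 and 120 min), RNA of PACAP38-treated cells and of control cells of the same time was hybridized together on 2 Agilent whole rat genome arrays, with Cy3 and Cy5 exchanged on the second. Per the series' design, RNA of n = 6 was pooled in each group before labelling. Both arrays of a time point therefore hold the same pools, each time point is 1 replicate, and PACAP38 and control were not tested against each other at a single time point: the folds of both arrays are given in place of an error. The labels call the treated cells PACAP-differentiated at every time point, 5 min included, and do not say what the control medium held. In pooled RNA of a culture, a lower signal from fewer cells and from less RNA per cell cannot be told apart.

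In the Wnt pathway, a ligand binds a Frizzled receptor together with Lrp5 or Lrp6. Without a ligand, a complex built on the scaffolds Axin1 or Axin2 with Apc marks beta-catenin (Ctnnb1) for degradation, and with a ligand beta-catenin enters the nucleus and acts through the DNA-binding factors Lef1, Tcf7, Tcf7l1 and Tcf7l2. Axin2 is itself a widely used target gene of this route and feeds back on it, and PC12 cells are a common model for neurite outgrowth.

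The findings rest on 4 probes, 2 for Axin2 and 2 for Lef1. They are shown because each of them was past the limits on fold and p-value at some time point, and because the probes of 1 gene differed in brightness. The first 30 of their 60 bases are given as printed in the array's annotation, 5′ to 3′, with no capitals since no base is singled out.
Axin2 A_42_P478138: agcttccactcactgagtcctggagcccat
Axin2 A_44_P262371: caagaaggcgagtgacgaatttgcctgtgg
Lef1 A_44_P975889: ctttaaatgttccgtatttgtatctgtttt
Lef1 A_44_P240702: cctctgaatgctttcatgttatacatgaaa
On rat build rn4 the Axin2 probes lie on the plus strand of chromosome 10, at 98322044 to 98322103 for A_42_P478138 and 98321105 to 98321164 for A_44_P262371, with 879 bases between them. The Lef1 probes lie on the plus strand of chromosome 2, at 228690210 to 228690269 for A_44_P975889 and 228663333 to 228663392 for A_44_P240702. Gene models of rn4 were not used here, so exons and untranslated parts are not named. The longest run of bases that any of the 4 probes shared with a probe of another gene name was 13 for both Axin2 probes and for A_44_P975889, and 14 for A_44_P240702.

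RefSeq (build GRCr8) gave a promoter for 7 of the 10 members. That of Axin2 is shown because the gene is known as a target of the TCF/LEF factors among the members. Its 250 bases before the start, at chr10:94398535-94398784 on the plus strand, read 5′ to 3′ as follows, with capitals on the letters CTTTGAA and CTTTGAT, forms of the TCF/LEF motif.
Axin2 promoter: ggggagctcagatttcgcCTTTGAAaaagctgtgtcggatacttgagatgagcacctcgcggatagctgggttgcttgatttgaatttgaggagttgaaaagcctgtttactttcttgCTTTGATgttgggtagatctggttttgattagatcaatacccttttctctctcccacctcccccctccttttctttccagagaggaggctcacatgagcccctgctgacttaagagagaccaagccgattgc
The letters were searched on both strands in windows of 300 bases, from 250 before to 50 after the start, with no overlap between the forms. The form CTTTGAT was in 3.63% of all 33469 promoters. The form CTTTGAA was in 5.4% and a further form, CTTTGTT, in 5.98% of them. The cAMP response element TGACGTCA, searched in the same way, was in 1.83%. Among the members' windows, Axin2 held the 2 forms in capitals once each, Tcf7 held CTTTGAT once, and no other match was found. These matches are letters only: no binding was measured.

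Axin2 was lower with PACAP38 at 60 and 120 min, and its folds at 5 to 30 min lay near 1. For the brighter probe, A_42_P478138, the fold of PACAP38 over control after 5 min was 1.01, from 0.947 on the array that had PACAP38 in Cy5 and 1.08 on the other, the order kept below. It came to 1.06 (0.965 and 1.17) after 10 min, 0.977 (0.95 and 1.004) after 15 min and 0.868 (0.941 and 0.8) after 30 min. After 60 min it was 0.296 (0.306 and 0.286), and after 120 min 0.207 (0.224 and 0.192). Both arrays of 60 and of 120 min read lower than all earlier ones, which sets 2 time points against 4, since paired arrays hold the same pools. The share of all probes that separate in this way was not counted. With background correction by normexp, which adds an offset of 50 to the signals, and loess, the folds of 60 and 120 min were 0.543 and 0.508, lower than the control but not past the 2-fold limit, and neither Axin2 probe was counted.

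**Figure D1:**
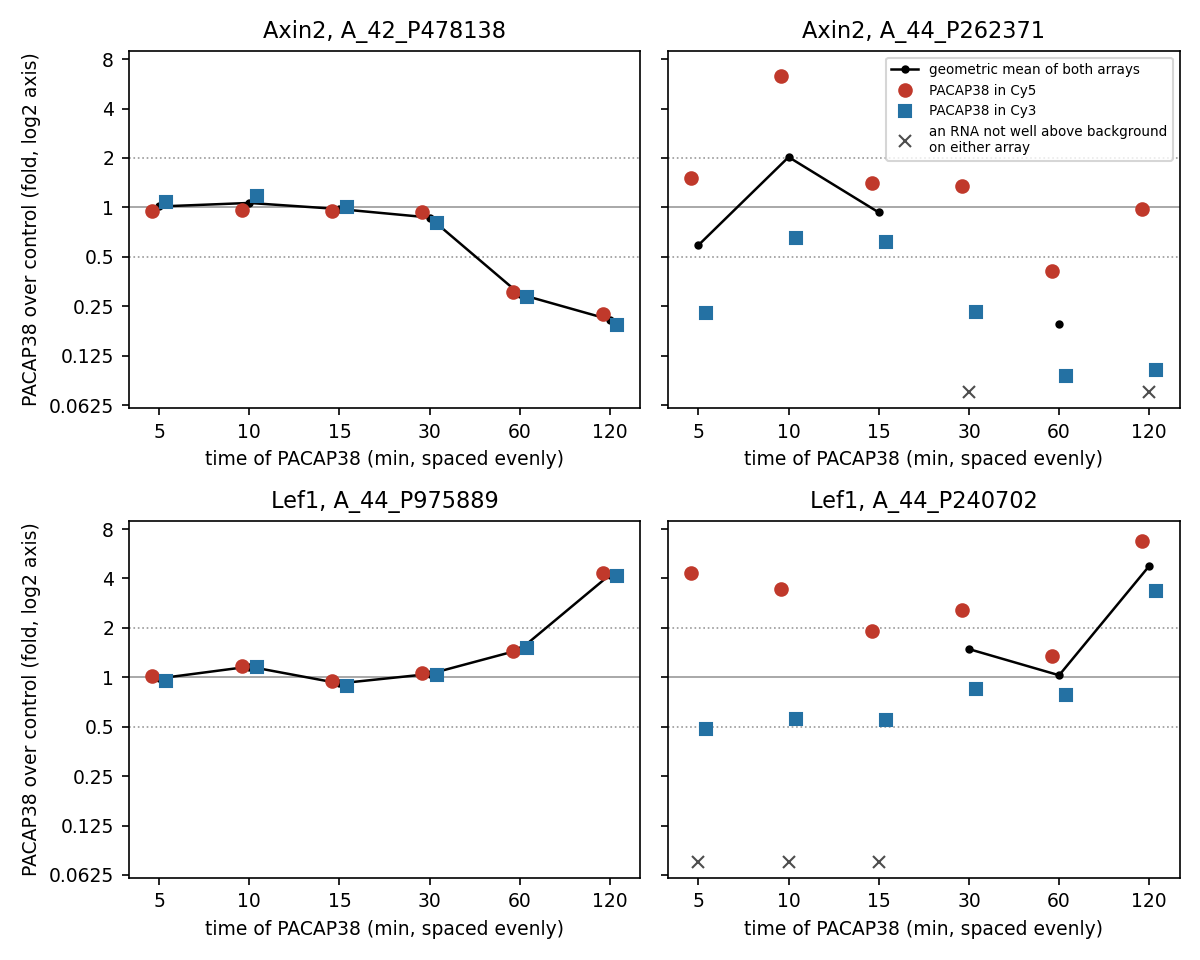
Fold of PACAP38 over control (log2 axis) against time in minutes (spaced evenly) for both probes of Axin2 and of Lef1. Circles are the array with PACAP38 in Cy5, squares the array with PACAP38 in Cy3, the line joins their geometric means where both RNAs were measured, crosses mark time points at which 1 of the RNAs was not well above background on any array, and dotted lines stand at 0.5 and 2. The brighter Axin2 probe stands at 0.296 and 0.207 at 60 and 120 min and the brighter Lef1 probe at 4.22 at 120 min, while the dimmer probe of each gene shows wide gaps between the dyes.

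The second Axin2 probe, A_44_P262371, was dim and its dye orientations disagreed. Its array pairs read 1.52 and 0.229 after 5 min, and 6.28 and 0.654 after 10 min. After 60 min the first array read 0.407. The second read 0.0936, but its PACAP38 signal was not well above background, and with the lowest signal well above background in its place the fold there was 0.271, which is a bound. The geometric mean was 0.195 as read and 0.332 with the bound. The probe met the limits used below either way. On the second array of 5 min and the first of 10 min the PACAP38 signal was not well above background either. At 120 min no PACAP38 signal of this probe passed that mark, and the control signal did so on 1 array only. The arrays read 0.981 and 0.103, so the first showed next to no difference. With the lowest signal well above background in place of the PACAP38 signal of the second, the geometric mean was 1.97-fold lower than the control. At 30 min detection was the same, the arrays read 1.35 and 0.231, and the corresponding mean was 1.59-fold lower. Since the first array was near or above 1 at both times, neither mean is a lower limit on a fall.

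A probe was counted as lower when both arrays of a time point gave a fold of at most 0.5 with a spot p-value under 0.01, and as higher when both gave at least 2 with such a p-value. Of the 19 member probes, 0 were counted at 5, 10, 15 and 30 min, where 0%, 0.0659%, 0.117% and 0.351% of all probes were counted. At 60 min 2 member probes were lower, both of Axin2, and 0 were higher, beside 0.376% of all probes lower and 0.871% higher. At 120 min 1 was lower (Axin2 A_42_P478138) and 2 were higher (both of Lef1), beside 1.53% of all probes lower and 1.95% higher.

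The channel signals show which RNA carried the difference. For Axin2 A_42_P478138 the control level, in intensity units after scaling between arrays, was 559, 464, 447, 474, 349 and 402 from 5 to 120 min. The level with PACAP38 was 566, 494, 437, 412, 103 and 83.2 at the same times. The PACAP38 pools of 60 and 120 min were thus below all others, and the control pools of 60 and 120 min were also the lowest of their series, by a smaller margin.

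**Figure D2:**
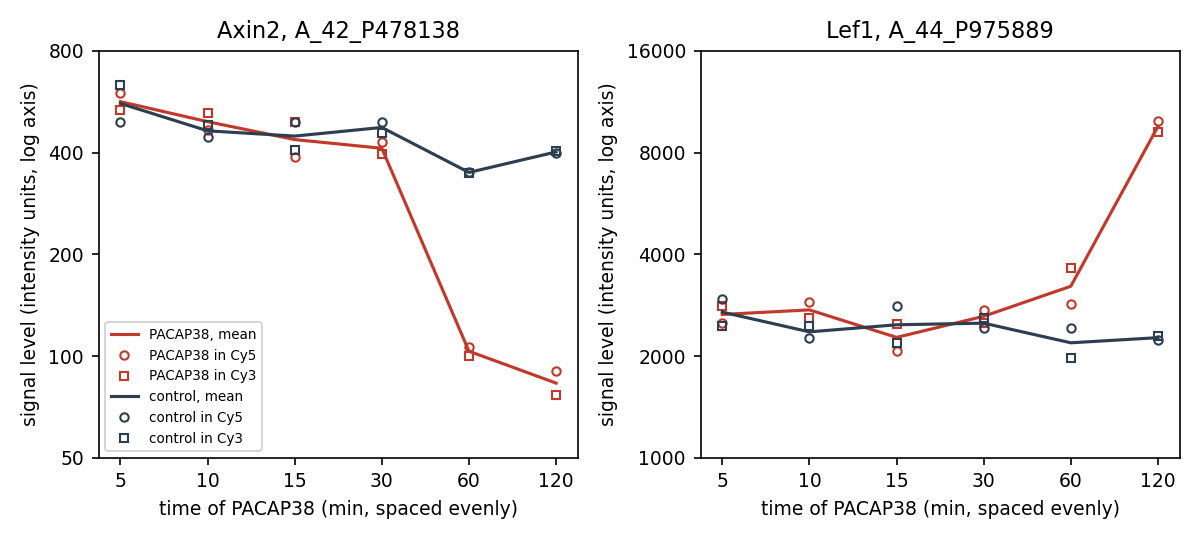
Signal level (intensity units, log axis) of the brighter probes of Axin2 and Lef1 against time in minutes (spaced evenly), with PACAP38 in red and control in dark blue. Lines are the means of both arrays, circles the Cy5 channel and squares the Cy3 channel; the Axin2 level with PACAP38 goes from 412 at 30 min to 103 at 60 min against a control of 349, and the Lef1 level with PACAP38 reaches 9558 at 120 min against 2267.

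The relation to time in minutes was tested over all 720 orders of the 6 time points (exact permutation test, two-sided), for the fold, the PACAP38 level and the control level of Axin2, and p-values were adjusted over these 3 by Benjamini-Hochberg. Axin2 was chosen with earlier results of these arrays known, and the adjustment covers 3 linked measures of 1 probe. These p-values are therefore no independent support for its fall. The log2 fold gave Pearson's r = -0.95 (exact p = 0.00417, adjusted 0.00625) and Spearman's rho = -0.94 (exact p = 0.0167, adjusted 0.025). With normexp and median centring, and with the arrays of PACAP38 in Cy5 alone, rho was -0.83 (exact permutation p = 0.0583 each) and did not pass. The PACAP38 level gave r = -0.93 (exact p = 0.00139, adjusted 0.00417) with rho = -1 (exact p = 0.00278, adjusted 0.00833). The control level gave r = -0.66 (exact p = 0.182, adjusted 0.182) with rho = -0.77 (exact p = 0.103, adjusted 0.103). With the 75th percentiles of the channels set equal, the control level had r = -0.89 (exact permutation p = 0.00556) but rho = -0.83 (exact p = 0.0583). After normexp, loess and Aquantile scaling it had r = -0.69 (exact p = 0.124) but rho = -0.94 (exact p = 0.0167), so that its relation to time passed or not with the scaling and the measure. Without 60 and 120 min, the times farthest from the median, r was -0.91 for the fold over 4 time points (exact permutation p = 0.125, with 0.0417 as the smallest p that these 4 values allow), -0.90 for the PACAP38 level and -0.48 for the control level. The folds stood in 2 sets, 4 near 1 and 2 far below and the relation did not pass without those 2.

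A slope on log2 time, fitted with limma to all 20203 probes that passed a filter on dim signals, was -0.55 log2 units per doubling of time for Axin2 A_42_P478138 (SE 0.11), with an adjusted p of 0.0739, and -0.48 for A_44_P262371, with an adjusted p of 0.186. No member probe passed an adjusted p of 0.05 in this fit, in which 0.728% of all probes did. With minutes in place of log2 minutes the Axin2 slope was -0.0225 log2 units per min with an adjusted p of 0.00632, in a fit where 26.4% of all probes passed. Over the probes well above background throughout it passed on log2 time too (adjusted p = 0.0424), as did 7.0% of those probes, a Ctnnb1 probe described below among them. Each slide held a pair of neighbouring time points, and with slide as a block the slope was -0.20, with an adjusted p of 0.894; in that limma fit 0 of all probes passed, and 943 had an unadjusted p under 0.05. Within slides, the later minus the earlier log2 fold of Axin2 was 0.07 for 5 and 10 min, -0.17 for 15 and 30 min and -0.51 for 60 and 120 min. The drop from 30 to 60 min falls between slides, so slide and time cannot be told apart for that step, although both RNAs of each ratio share an array.

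Axin1, the other scaffold of the destruction complex, was not counted at any time. Its probe (A_44_P154049) had folds of 1.04, 1.01, 1.00, 0.925, 0.869 and 0.836 from 5 to 120 min, with 0.793 and 0.881 on the arrays of 120 min. The slope of Axin1 was -0.076 (SE 0.024) with a limma adjusted p of 0.112. Both arrays of 60 and of 120 min were below 1, but by far less than for Axin2 on the same arrays.

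Apc, the large scaffold that binds beta-catenin in the same complex, was not counted either. The brightest of its 4 probes had folds between 0.970 (10 min) and 1.16 (120 min), and the arrays of 120 min stood on both sides of 1 (0.949 and 1.43). The second probe ranged from 0.752 at 15 min to 1.27 at 120 min. The other two Apc probes were well above background in 1 and 0 of 24 channels.

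Ctnnb1, which encodes beta-catenin, had 3 probes, all well above background in all 24 channels. The brightest one stayed between 0.934 at 120 min and 1.01 at 60 min, and its folds on the 12 arrays ranged no wider than 0.911 to 1.04. The second probe, A_44_P526933, was at 1.45 at 120 min (1.37 and 1.53), and the third, A_44_P409339, at 1.32 at both 60 and 120 min. The slope of A_44_P409339 on log2 time was 0.15 (SE 0.030), with a limma adjusted p of 0.0739 in the fit to all probes past the filter and of 0.0418 over the probes well above background throughout. The probes of Ctnnb1 thus did not give the same fold at 120 min, and none was counted.

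Lef1, an HMG-box factor that binds beta-catenin, was higher at 120 min on both of its probes. The brighter one, A_44_P975889, had folds of 0.984, 1.16, 0.918 and 1.05 from 5 to 30 min. It was 1.47 after 60 min (1.44 and 1.504), and 4.22 after 120 min (4.32 and 4.11). Its control level lay between 2189 and 2698 over the 6 pools, and the level with PACAP38 was 2655, 2739, 2271, 2622, 3218 and 9558 from 5 to 120 min. The 120 min pool with PACAP38 was the one that stood apart from the other 11 pools.
The dimmer Lef1 probe, A_44_P240702, was at 4.77 at 120 min (6.75 and 3.37) and at 1.03 at 60 min. At 5 to 15 min its PACAP38 RNA was not well above background on either array, and no fold is given. With normexp background correction this probe was not counted at 120 min, and the brighter one was. The slope of Lef1 A_44_P975889 was 0.39 (SE 0.12) with a limma adjusted p of 0.116, and its within-slide differences were 0.24, 0.19 and 1.52 log2 units. Between 60 and 120 min, on 1 slide, Lef1 and Axin2 moved apart, by 1.52 and -0.51 log2 units.

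The other TCF family members were dim. Tcf7 was measured at 5, 60 and 120 min (0.732, 0.903 and 1.1), with arrays on opposite sides of 1 each time, 0.422 against 1.93 at 60 min and 0.593 against 2.04 at 120 min. The brightest of the 3 Tcf7l2 probes was measured at 60 and 120 min only, at 0.959 and 1.09, and the other two had a measured fold at 0 time points. Tcf7l1, a family member best known as a repressor, was well above background in 0 of 24 channels.

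Of the co-receptors, Lrp5 was measured at 10 to 120 min. Its fold after 10 min was 0.657 (1.29 and 0.335), and those after 15, 30, 60 and 120 min were 1.05, 1.08, 1.06 and 1.01. The arrays of 10 min stood on opposite sides of 1, and the single arrays of the 4 later times lay between 0.867 and 1.22. Lrp6 was well above background in 0 of 24 channels, and no fold is given. Over the member genes with a measured brightest probe, the median log2 fold was -0.02 at 60 min (8 genes, -1.76 to 0.56) and 0.07 at 120 min (8 genes, -2.27 to 2.08). Over all genes measured the medians were -0.03 and -0.05.

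**Figure D3:**
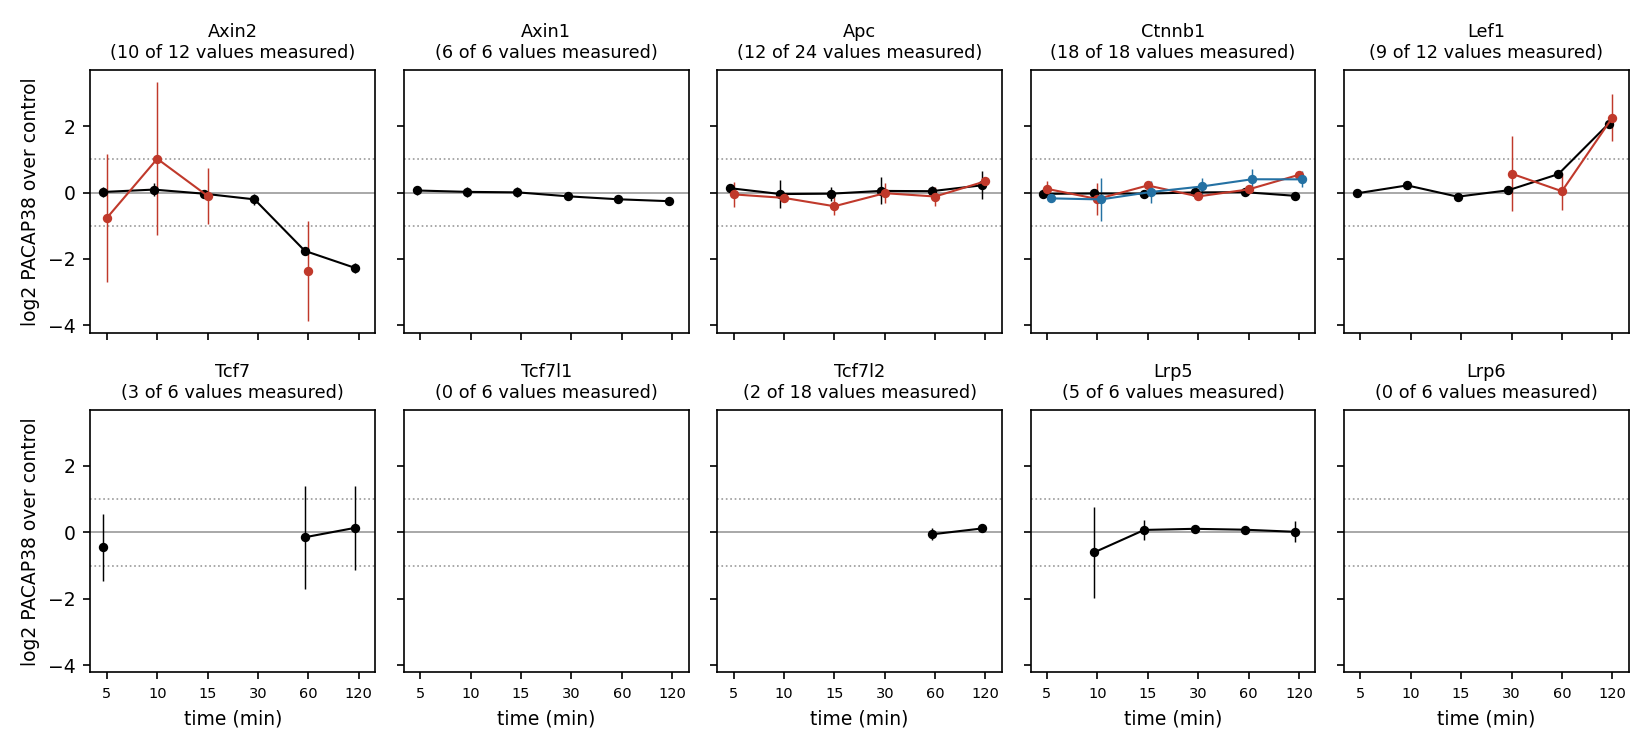
Log2 fold of PACAP38 over control against time in minutes (spaced evenly) for every member probe at the time points where both RNAs were measured, with 1 panel per gene and 1 colour per probe (black for the brightest). Points are means of both arrays, bars the SD between them, and dotted lines stand at -1 and 1. Axin2 at 60 and 120 min and Lef1 at 120 min lie outside the dotted lines, as does the dim Axin2 probe at 10 min with arrays far apart, and the panels of Tcf7l1 and Lrp6 are empty since none of their values was measured.

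To set the members in their pathway, 126 other Wnt genes were listed by role, of which 115 had probes (180 in all). Of the 180 probes 0 were lower and 2 higher (1.11%) at 60 min, where 0.376% and 0.871% of all probes were. The later arrays of 120 min had 4 lower and 3 higher, or 2.22% and 1.67%, which is near the 1.53% and 1.95% of all probes. The counts by role below are parts of these and are not read as a result about any role. At 120 min, 61 of these genes were measured, with a median log2 fold of -0.14, against -0.05 over all genes.
Among ligands, 0 of 32 probes were counted. Wnt5b, a ligand of the beta-catenin independent route, read 0.254 at 120 min (0.457 and 0.142), at control levels near 44. Each of its RNAs was well above background on 1 of the 2 arrays, and with dim signals raised to the lowest one well above background the fold was 0.515.

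Among receptors and their regulators, 2 of 21 probes were lower at 120 min, both of Frizzled genes. Fzd2 had a fold of 0.262 (0.405 and 0.170) and Fzd9 of 0.431 (0.466 and 0.399). The PACAP38 signal of Fzd2 was well above background on 1 of the 2 arrays. At 60 min they stood at 0.681 and 0.974. Of the secreted inhibitors, 0 of 23 probes were counted, and 2 of the 13 genes on the array were measured.
In the cytoplasm, 2 of 40 probes were lower at 120 min. Cxxc4, which binds Dishevelled and restrains the pathway, was at 0.333 (0.426 and 0.260), and Frat2, which binds the kinase GSK3 and favours beta-catenin, was at 0.444 (0.466 and 0.422). Csnk1d, a casein kinase, reached 1.77 on its brighter probe and 1.16 on the other, and was not counted. With normexp background correction 0 of these 4 lower probes were counted.

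Among nuclear cofactors, 1 of 34 probes was counted. Tle3, a Groucho-type corepressor that binds TCF/LEF factors, had folds of 2.17 (2.01 and 2.35) and 3.898 (3.8 and 3.996) at the last 2 times, after 1.003 to 1.104 in the first 30 min. Its control level lay between 1073 and 1189. On the same arrays as Lef1, it was past the 2-fold limit 1 time point earlier, though at 60 min not with normexp, by loess or by median centring, and not after median centring of the processed signals.
Among target genes, 2 of 30 probes were higher at 120 min. Fosl1, a subunit of the AP-1 factor, was at 5.25, 9.002 and 11.3 at 30, 60 and 120 min, with a control level that also went from 172 at 5 min to 1208 at 120 min. Bambi, a decoy receptor for TGF-beta ligands, was at 1.43, 1.73, 1.899 and 2.68 from 15 to 120 min. With normexp and median centring Bambi was not counted at 120 min. Id2, an inhibitor of helix-loop-helix factors, was at 1.55, 1.73 and 1.79 from 30 to 120 min on its brightest probe and was not counted. In the limma fit Fosl1 and Bambi rose with log2 time (slopes 0.90 and 0.28, adjusted p of 0.0418 for each). Both calls were lost when any 1 of the 6 time points was left out (limma adjusted p from 0.0518 to 0.142 for Fosl1 and from 0.0545 to 0.165 for Bambi). They were also lost with slide as a block (0.894 for each), with no filter on dim probes, with normexp and median centring and with either dye orientation alone, and that of Fosl1 with normexp and loess (0.0547). In many of these fits hardly any probe passed, 0 of 20203 without 10, 15, 30 or 120 min. Without 1 time point the slopes were 0.86 to 1.00 for Fosl1 and 0.25 to 0.31 for Bambi. Both slopes passed on minutes (limma adjusted p of 0.0276 and 0.00921), as did 26.4% of all probes. They also passed over probes well above background throughout (0.0189 and 0.0187, with 7.0% of those) and with processed signals median centred (0.0479 each). Over the 8 target genes measured at 120 min, the log2 fold had a median of 0.00 and ranged from -1.14 to 3.49. The lowest was Mycn, a MYC family factor chosen for its value, which was not counted. Axin2 was thus counted as lower at 60 and 120 min on the same arrays on which Fosl1 was counted as higher.

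**Figure D4:**
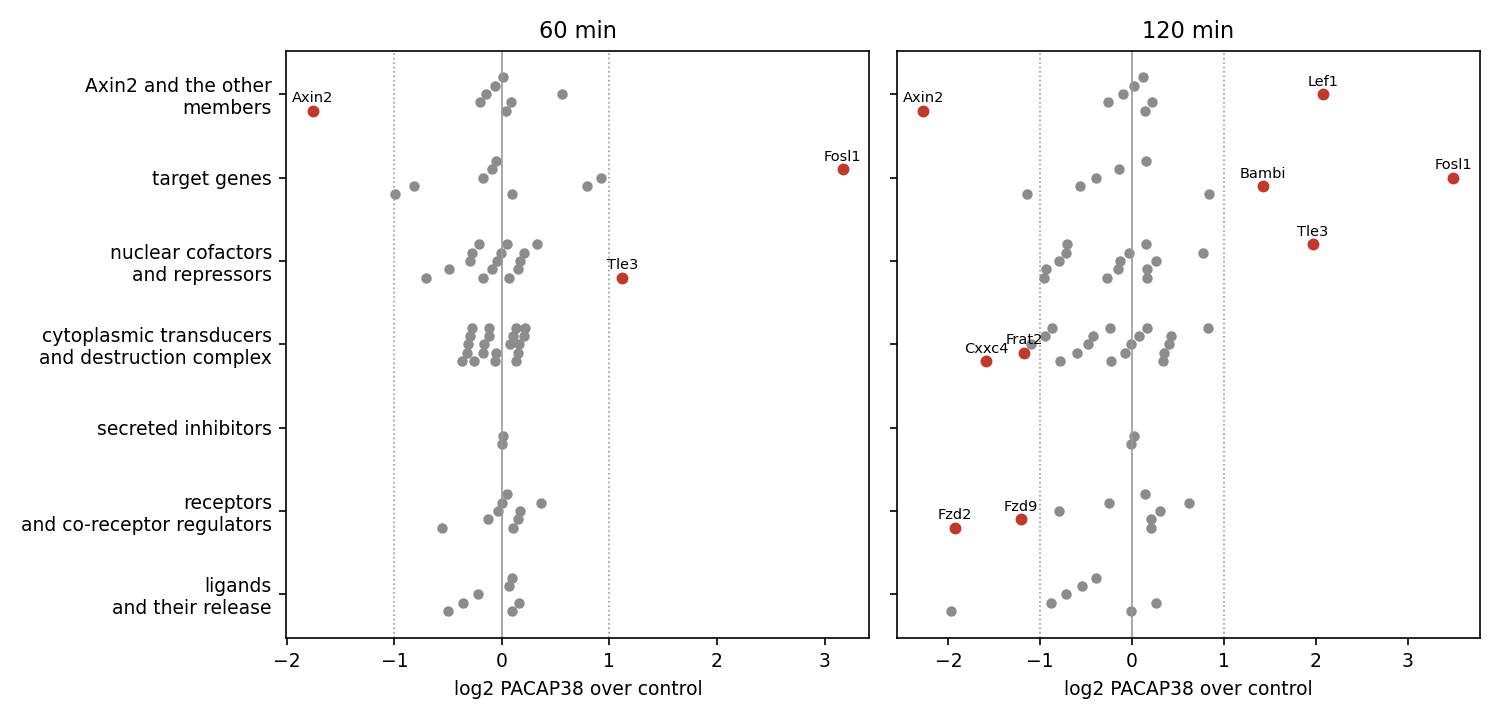
Log2 fold of PACAP38 over control at 60 and at 120 min for the brightest measured probe of each gene, by role in the pathway (rows), with vertical scatter for visibility only. Red points with names were past the fold and p limits on both arrays, grey points were not, and dotted lines stand at -1 and 1. Axin2 lies farthest to the left at both times, and Fosl1 farthest to the right, at log2 folds of 3.17 and 3.49.

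The genes whose 6 log2 folds were most like those of Axin2, by the root mean square difference over the 6 time points among 11183 genes measured throughout, were Lrr1 (0.14 log2 units), Sox18 (0.17), Gemin4 (0.19), Pars2 (0.21) and Klf10 (0.23). Their folds at 60 min were 0.251, 0.341, 0.397, 0.402 and 0.265, and at 120 min 0.205, 0.265, 0.203, 0.195 and 0.267. At 5 to 15 min all of them lay between 0.886 and 1.13. Sox18 is an HMG-box factor, Gemin4 belongs to the SMN complex, Pars2 is a mitochondrial prolyl-tRNA synthetase and Klf10 a zinc finger factor. None of them was on the list of pathway genes.

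The cells carried the markers of their label: 10 of 11 chromaffin and sympathoadrenal genes on the array were well above background in all 12 control channels. Of 11 markers of endothelium, fibroblasts and leukocytes, Col1a1 and Cd68 were so too, at control levels of 63.4 to 130. The fibroblast genes Col1a2 and Dcn were so in 10 and 7 of the 12, while Col3a1, Lum, Ptprc and the 3 endothelial genes were so in none. At 120 min Cd68 was at 1.94, and the summed leukocyte markers read 271.0 in the PACAP38 pool against 120 to 152 in the 6 control pools. Of these 3 leukocyte genes, Cd68 alone was well above background in any PACAP38 channel, and Csf1r was so in 1 of 12 control channels; their part in the members' folds was not tested. As a check of the response, the immediate early gene Fos had folds of 16.8, 21.3 and 18.2 after 10, 30 and 120 min, and Egr1 of 15.3, 60.7 and 9.72.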

How the data were processed

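RNA of PC12 cells with PACAP38 or control at 6 time points was measured on 12 arrays (Agilent, 2 colours, 2 arrays with exchanged dyes per time point, 3 slides of 4 arrays). The authors scanned the arrays with Feature Extraction (11.0.1.1 in the submitters' processing notes, 12.0.3.1 in the file headers), and the deposited processed intensity values are background-subtracted and LOWESS dye-normalized. The deposited mean and background intensities are not normalized. The deposited table of the series holds log10 ratios of Cy5 over Cy3, computed from the processed intensities by the authors. The p-value of each spot was deposited with its log ratio by the authors' software. In 20.2 to 26.7% of spots per array that log ratio differs from the one of the processed intensities used here. It is 0 with a spot p of 1 in all of these, so that a probe resting on such spots could not be counted.

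Ratios were turned by dye orientation. The 1639 control spots and, per array, 197 to 267 spots flagged as outliers were dropped, repeated spots were averaged as log2 ratios, and both arrays were joined by their geometric mean. Levels are processed intensities after Aquantile scaling between arrays. A probe is called measured where each RNA was well above background on at least 1 array; a bound sets the bright RNA against the higher of the dim signal and the lowest signal well above background. Between 38.4 and 49.6% of spots per channel were well above background and 0 were saturated, and the number of arrays limits the precision. Of several probes the brightest stands for a gene. RefSeq accessions matched 20909 probes and updated the name of 1880.

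Slopes on log2 time used limma 3.58.1 in R 4.3.3, with Benjamini-Hochberg adjustment over the 20203 probes for which both arrays of some time point had a channel well above background, and the fit was tested on simulated data. Python 3.11.15 (scipy 1.17.1, numpy 2.4.6, pandas 2.3.3, matplotlib 3.10.9) served for the rest. Alternatives were other fold and p limits, 1 array alone, normexp (offset 50) with loess or median centring, the deposited table, other scalings, other probes, leaving out time points, time in minutes, and a slide block. The members and lists were chosen with earlier results of these data known. Named are all members, the list genes counted at any time, those with the 5 highest and 5 lowest measured folds at 120 min, the 5 genes most like Axin2, and Fos, Egr1 and Nr4a1 as response genes. Mycn and the marker genes are named outside this rule, Mycn after its value was seen. P-values over time points measure the spread between these pools. The proteome was not analysed here, and 1 list of marker genes is not reported here.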

Additional observations from a re-analysis of the deposited data

Results flagged for a closer look

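Among the 6 control pools of each of the 10 member genes, 1 pool stood apart by Dixon's criterion, which marks about 1 group in 20 by chance. The control level of Tcf7l1 was 16.7 at 120 min and between 5.82 and 6.47 in the other pools, with a gap of 0.90 of the whole range on the log2 scale. Its Cy3 and Cy5 channels at 120 min read 29.9 and 9.29, and no channel of this probe was well above background.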

How the results depend on the processing

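After normexp background correction with loess and with median centring, the Axin2 fold after 60 min was 0.543 and 0.541, after 120 min 0.508 and 0.462, and the Lef1 fold after 120 min 3.73 and 3.22. With the mean of all probes in place of the brightest, these folds were 0.240, 0.256 and 4.48. By normexp with loess or median centring 0 member probes were counted as lower at 60 and at 120 min, and 1 (of Lef1) as higher at 120 min. At 120 min 3 were lower by the geometric mean without a p limit, the third being Tcf7l1, which was not measured, and 2 with PACAP38 in Cy3 alone. The number of other pathway probes counted as higher at 60 min was 6 with a 1.5-fold limit, and 1 with normexp (either way) or median centring of the processed signals. Those counted as lower at 60 min were 1 by the geometric mean, 1 with PACAP38 in Cy5 alone and 7 in Cy3 alone. At 120 min 15 were lower with a 1.5-fold limit, 11 by the geometric mean, 16 with PACAP38 in Cy3 alone and 0 with normexp, and 7 were higher with a 1.5-fold limit and 5 with PACAP38 in Cy5 alone. The cause of these shifts was not tested.

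The Axin2 slope passed an adjusted p of 0.05 in limma with time in minutes (-0.0225, adjusted p = 0.00632) and over probes well above background throughout (-0.55, adjusted p = 0.0424). The slope of this probe (A_42_P478138) was negative under all alternatives tried for it, whereas that of the dim A_44_P262371 was 0.58 with slide as a block. The size for A_42_P478138 was smaller after normexp, at -0.25 with loess and -0.30 with median centring. Leaving out each time point in turn gave slopes from -0.71 to -0.45, with adjusted p from 0.0595 to 0.333, the last without 120 min. The Lef1 slope, whose alternatives were added after seeing the data, passed in limma with minutes (0.018, adjusted p = 0.00527), in a fit where 26.4% of all probes passed. Without 120 min the Lef1 slope on log2 time was 0.13 (adjusted p = 0.492), and with slide as a block 0.65 (adjusted p = 0.894). The relation of Axin2 to time had r = -0.911 without 60 and 120 min (exact permutation p = 0.125, where these 4 values allow no p under 0.0417), and that of the control level r = -0.891 with the 75th percentiles set equal (exact permutation p = 0.00556). Of 282 alternative values for 37 other member folds, 37 moved by more than the SD between arrays, and 4 were past 2-fold, all of Tcf7 or Lrp5 on 1 array alone. By this measure 1 array alone could not move, since it always lies within the SD of the pair. The deposited table holds the same ratios and could not move either, so the share that moved says nothing about these settings.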

Other observations

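The control pools differed between time points for response genes. From 5 to 120 min the Fos control level was 13.3, 65.8, 164, 243, 269 and 77.5, and that of Nr4a1, an orphan nuclear receptor, went from 368 at 5 min to 4501 at 60 min. The Egr1 control level stayed between 226 and 396. Each fold is read against the control of its own time point, and the part of these differences in the members' folds was not tested.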
